A study of Mus musculus with 12 samples.

Results

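The hepatic expression of 10 UDP-glucuronosyltransferase (UGT) genes was compared among mice on 4 diets. The genes, Ugt1a1, Ugt1a6a, Ugt1a9, Ugt2b1, Ugt2b5, Ugt2b34, Ugt2b35, Ugt2b36, Ugt2b38 and Ugt3a2, were taken by name and are 10 of the 22 UGT genes, and of the 22870 genes in all, to which transcripts of the deposited table were assigned. RNA sequencing covered livers of 12 male C57BL/6J mice, 3 in each group, that were 21 weeks old after 16 weeks of feeding and were fasted before the livers were taken. The ND group received a normal diet, and the HFD group a high-fat diet. The CLE group received the high-fat diet with 1.5% (w/w) of an ethanol extract of chrysanthemum leaf, and the LU group the high-fat diet with 0.003% (w/w) of luteolin, so that the last 3 groups share the high-fat diet. The authors picked these livers as representative of larger groups, and each is 1 mouse.

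UGT enzymes sit in the membrane of the endoplasmic reticulum and join a sugar, mostly glucuronic acid taken from UDP-glucuronic acid, to bilirubin, steroids, bile acids, drugs and plant phenols, which then leave the hepatocyte in bile or blood. The Ugt1a genes share one locus. Each has its own first exon and the following exons are common to them, so that the enzymes differ in the part that binds the substrate. The Ugt2b genes are separate genes lying side by side, and their products act on steroids and bile acids among others. The human UGT3A2 enzyme uses UDP-glucose and UDP-xylose rather than UDP-glucuronic acid. Luteolin is a flavone and is itself conjugated by UGT enzymes.

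In the GRCm38 annotation, all 3 Ugt1a members lie on the plus strand of chromosome 1 and end at the same base. Ugt1a9 spans chr1:88070800-88218997, Ugt1a6a chr1:88134809-88218997 and Ugt1a1 chr1:88211959-88218997. The 6 Ugt2b members lie on chromosome 5, with Ugt2b34 at chr5:86889767-86906937, Ugt2b1 at chr5:86916638-86926530, Ugt2b35 at chr5:87000860-87013275, Ugt2b36 at chr5:87065927-87092555, Ugt2b5 at chr5:87124960-87140318 and Ugt2b38 at chr5:87409942-87424203. Of these, Ugt2b35 is on the plus strand and the others on the minus strand. Ugt3a2 lies on the plus strand at chr15:9335550-9370955, beside Ugt3a1.

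Ugt2b5, Ugt2b38 and Ugt2b36 have similar sequence just before their starts, and it is shown because, in HFD against ND, Ugt2b36 rose, Ugt2b38 fell and Ugt2b5 did not pass the test. The 45 bases directly before the RefSeq start of Ugt2b5 and the most similar ungapped 45 bases before the other two starts were read from the RefSeq promoters of GRCm38.p6, 5′ to 3′ in the direction of the gene. Capitals mark bases that differ from Ugt2b5.

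Ugt2b5: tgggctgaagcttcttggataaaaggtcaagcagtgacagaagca
Ugt2b38: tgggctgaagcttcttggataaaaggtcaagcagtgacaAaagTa
Ugt2b36: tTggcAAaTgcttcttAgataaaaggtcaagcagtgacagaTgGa

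All 3 windows are on the minus strand, at chr5:87140341-87140385 for Ugt2b5, chr5:87424207-87424251 for Ugt2b38 and chr5:87092559-87092603 for Ugt2b36, and the last base of the latter pair lies 4 bases before the start. Ugt2b38 has the same base as Ugt2b5 at 43 of 45 positions and Ugt2b36 at 38. Of the 10 genes, 9 have a promoter entry and Ugt3a2 has none. The core of the aryl hydrocarbon receptor element, GCGTG on either strand, was in none of the 9 in the 250 bases before the start and in 28.2% of all 32851 promoters. These letters describe the sequence and are not measurements of binding.

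Expression was given as FPKM, which scales fragments to transcript length and library size and so lets genes be set side by side. Over the 12 livers, Ugt1a1 had the highest mean, 393 ± 63.2 FPKM (SD, n = 12), followed by Ugt2b36 with 358 ± 80.1 and Ugt2b5 with 354 ± 38.5. Ugt2b1, Ugt3a2 and Ugt2b34 came next with 205 ± 52.6, 198 ± 37.3 and 185 ± 36.0 FPKM. Neighbours in this order within each trio differed by less than their SD. Ugt2b35 followed with 76.8 ± 27.1 FPKM, Ugt1a6a with 46.2 ± 10.9, Ugt1a9 with 18.2 ± 8.87 and Ugt2b38 with 3.0 ± 2.78. The ranges of Ugt2b35 and Ugt1a6a overlapped, and Ugt2b38 was below Ugt1a9 in every liver. All 10 genes passed the filter of a mean of at least 0.5 FPKM that left 11994 genes for the tests.

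**Figure D1:**
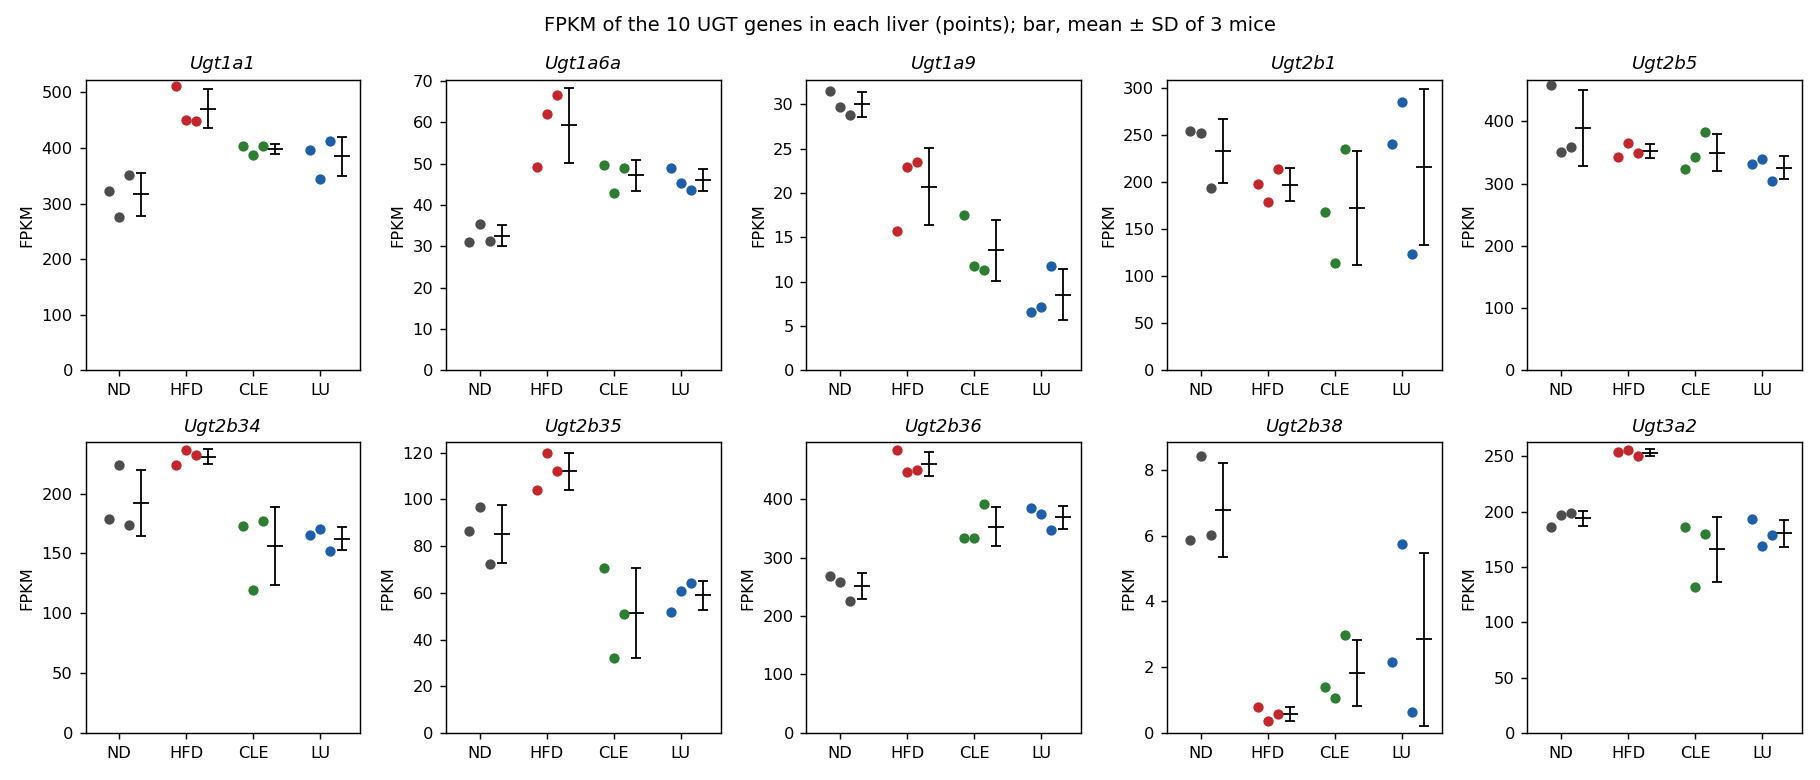
FPKM of each of the 10 UGT genes (y axes, each starting at 0) in the 4 diet groups (x axes), with a point per liver and the mean ± SD of 3 mice as a bar beside them. Ugt1a1, Ugt1a6a and Ugt2b36 stood higher in HFD than in ND in every liver, Ugt2b38 lower, and the mean of Ugt1a9 was lowest in LU.

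Several features of the libraries separate the groups. The deviation of gene levels from their mean over the 12 livers tracked the GC content of the transcript, with Spearman coefficients of -0.37 to -0.14 in the ND and HFD livers and 0.16 to 0.47 in the CLE and LU livers over 11931 genes, and CLE mouse 4 stood apart with 0.47. A score of clock genes (mean log2 level of Dbp, Tef, Per2, Per3, Nr1d1 and Nr1d2 less that of Arntl, Clock and Npas2) ran from 0.12 to 1.95 in ND, 1.31 to 2.56 in HFD, 2.72 to 3.32 in CLE and 2.36 to 3.34 in LU. Hepatocyte markers were high in every liver, summing to 13714 to 20704 FPKM, although albumin, which every liver makes, was listed at 0 in 11 of the 12 livers, so that a listed 0 can be a failed estimate. Corrections for GC content and for the clock score were chosen after seeing the data.

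High-fat feeding was accompanied by higher Ugt1a1, Ugt1a6a and Ugt2b36 and lower Ugt2b38. Thus 4 of the 10 genes passed an adjusted p of 0.05 in HFD against ND, 3 higher and 1 lower, where 11.8% of all tested genes passed, 9.73% higher and 2.03% lower. The median log2 fold change of the 10 genes was 0.33, and that of all tested genes 0.11. In 5 of the 10 genes every HFD liver was above every ND liver, as in 28.6% of all tested genes, and in 2 every HFD liver was below, as in 7.46%.

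Ugt1a1, which encodes the enzyme that conjugates bilirubin, was at 322, 276 and 352 FPKM in the ND livers and at 511, 451 and 449 FPKM in the HFD livers. Every HFD liver was above every ND liver. The log2 fold change was 0.57 ± 0.12 (SE; adjusted p = 0.0093, limma), a ratio of means of 1.49. Ugt1a6a, whose product conjugates small planar phenols, was at 30.9, 35.4 and 31.3 FPKM in ND and 49.2, 62.0 and 66.7 FPKM in HFD, again without overlap. Its log2 fold change was 0.84 ± 0.12 (adjusted p = 0.001, limma). Ugt2b36 was at 268, 259 and 226 FPKM in ND and at 484, 447 and 449 FPKM in HFD. This gene thus reached in HFD a level 1.83 times that of ND, with a log2 fold change of 0.87 ± 0.11 (adjusted p = 4e-04, limma). Under median-of-ratios scaling, in which the shift of all genes is removed, the log2 fold change was 0.43 for Ugt1a1 (adjusted p = 0.067), which no longer passed, 0.70 for Ugt1a6a (adjusted p = 0.0041) and 0.73 for Ugt2b36 (adjusted p = 0.0038). Of all calls in this comparison 82.8% were higher as deposited and 57.8% after this scaling.

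Ugt2b38 had the lowest level of the genes, read from its reference transcript alone, without the assembled transcripts that join it to Ugt2b5. It was at 5.87, 8.42 and 6.03 FPKM in ND and at 0.788, 0.371 and 0.565 FPKM in HFD. The lowest ND liver was well above the highest HFD liver. Its log2 fold change was -2.30 ± 0.39 (adjusted p = 0.003, limma), on the scale of FPKM plus 1, which understates the change of a gene at this level. The ratio of means was 0.08.

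Of the other members, Ugt1a9, whose human counterpart acts on bulky phenols including flavonoids, was at 31.5, 29.7 and 28.8 FPKM in ND and 15.7, 22.9 and 23.5 FPKM in HFD, and its log2 fold change of -0.53 ± 0.21 did not pass (adjusted p = 0.13). Ugt3a2 was at 186, 197 and 199 FPKM in ND and 254, 256 and 250 FPKM in HFD (log2 fold change 0.38 ± 0.13, adjusted p = 0.068). Neither gene overlapped between the groups. Ugt3a2 passed without CLE mouse 4 (adjusted p = 0.013) and with a GC content correction (adjusted p = 0.022). Ugt2b35 was also without overlap, with a log2 fold change of 0.40 ± 0.22 (adjusted p = 0.27). The intervals of the other 3 genes included 0, from -0.06 to 0.59 for Ugt2b34, -0.40 to 0.13 for Ugt2b5 and -0.86 to 0.39 for Ugt2b1 (95% limits of the log2 fold change).

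**Figure D2:**
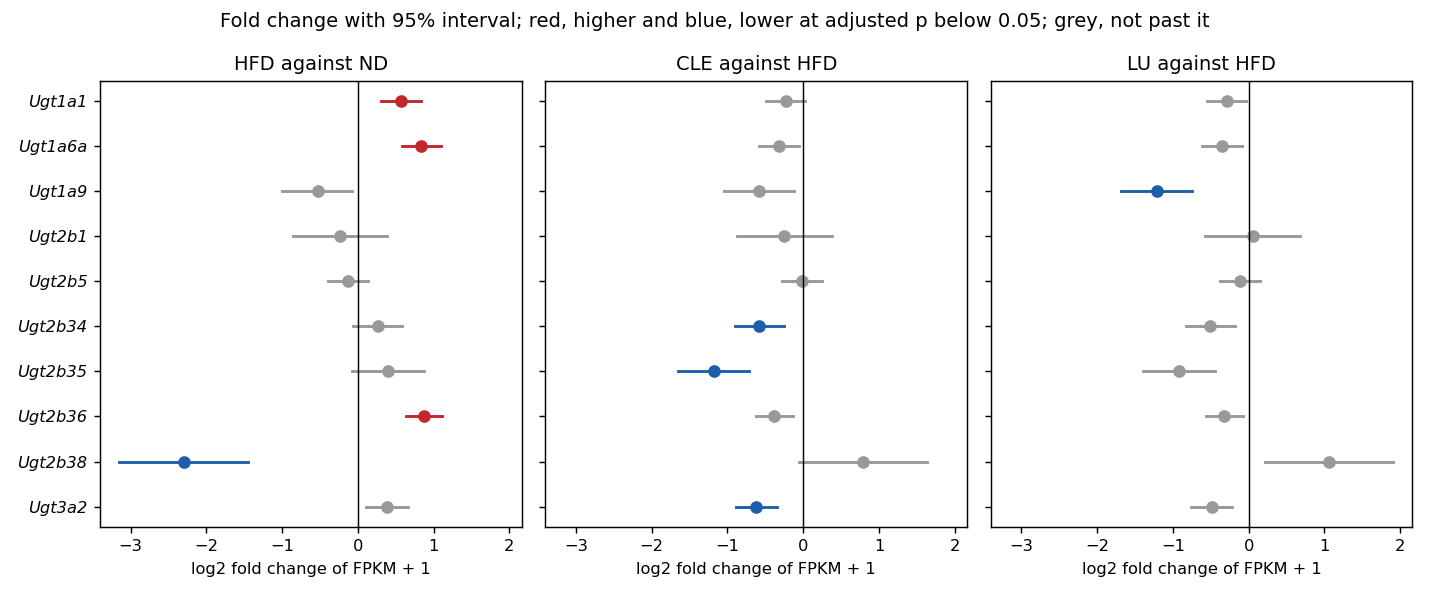
Log2 fold change of FPKM plus 1 (x axes) of the 10 genes (y axis) in 3 comparisons, a panel each, with points for the estimates and lines for their 95% intervals. Panels set HFD against ND and each treated group against HFD. Red marks higher and blue lower at an adjusted p below 0.05, and grey marks genes that did not pass. CLE and LU share the HFD livers as their reference.

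Cell type markers also moved with the high-fat diet. Of the 7 markers of hepatocytes around the central vein, where UGT enzymes are known to be enriched, 5 rose (Glul, Cyp1a2, Lgr5, Rhbg and Slc1a2). Of all tested genes 9.73% did. The 7 summed to 6515 to 7343 FPKM in ND and 8721 to 10449 FPKM in HFD. Most of this was Cyp2e1 (means of 5090 and 6902 FPKM), which, like Oat, did not pass (adjusted p = 0.091 and 0.11, limma). The 6 stellate cell markers summed to 88.1 to 127 FPKM in ND and 145 to 187 in HFD, with 4 risen, and the 6 Kupffer cell markers to 94.1 to 107 and 137 to 205, with 2 risen. In bulk liver, fewer cells of a type and less RNA per cell cannot be told apart, and the part of these markers in the changes of the UGT genes was not tested. The sum of the 7 periportal markers overlapped between the groups, at 2783 to 4026 FPKM in ND and 2898 to 3321 in HFD. Of these 7, Pck1 was the 1 that passed and fell without overlap (log2 fold change -0.67 ± 0.16, adjusted p = 0.02, limma), where 2.03% of all tested genes were lower. The median log2 fold change of the 7 was 0.11, equal to that of all tested genes. Hsd17b13 was above ND in every HFD liver without passing (0.39 ± 0.17, adjusted p = 0.15, limma).

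With the leaf extract, Ugt2b34, Ugt2b35 and Ugt3a2 were lower than in HFD. These 3 of 10 genes passed in CLE against HFD and none was higher, where 5.67% of all tested genes passed and 3.15% were lower. The median log2 fold change was -0.35 over the 10 genes and 0.02 over all tested genes.

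Ugt2b35 was at 104, 120 and 112 FPKM in the HFD livers and at 70.6, 32.1 and 51.0 FPKM in the CLE livers. Its log2 fold change was -1.18 ± 0.22 (adjusted p = 0.019, limma), the ratio of means was 0.46, and the groups did not overlap. Ugt3a2 was at 186, 132 and 180 FPKM in CLE, each below the HFD livers (log2 fold change -0.62 ± 0.13, adjusted p = 0.025, limma). Ugt2b34 was at 224, 236 and 232 FPKM in HFD and 173, 119 and 177 FPKM in CLE, without overlap (log2 fold change -0.58 ± 0.15, adjusted p = 0.045, limma). In all 3 genes CLE mouse 4, the liver that stood apart by GC content, was the lowest of the 12. Without that mouse the adjusted p was 0.04 for Ugt2b35, 0.058 for Ugt3a2 and 0.15 for Ugt2b34. With a GC content correction the log2 fold changes were -0.99 (adjusted p = 0.031), -0.45 (adjusted p = 0.045) and -0.40 (adjusted p = 0.098) in the same order. Ugt2b34 passed in 3 of the 12 fits that leave out 1 mouse. None of the 3 genes passed when any 1 of the 3 HFD mice was left out, with adjusted p values of 0.055 to 0.098 for Ugt2b35. Nor did they pass with the clock score in the fit, where the log2 fold changes were -1.13, -0.59 and -0.63 and the adjusted p 0.092, 0.11 and 0.14.

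Some cell type markers moved in this comparison too. Of the 7 markers of hepatocytes around the central vein, Rhbg fell, from 6.46, 6.83 and 8.49 FPKM in HFD to 3.23, 2.28 and 2.30 in CLE (log2 fold change -1.20 ± 0.23, adjusted p = 0.022, limma), and the other 6 did not pass. These markers summed to 8842 to 9602 FPKM in CLE, which overlapped HFD. Of the 7 hepatocyte markers, Apoa1, an apolipoprotein of HDL, was the 1 that passed. It rose by 0.84 ± 0.20 on the log2 scale (adjusted p = 0.038, limma), while the median log2 fold change of the 7 was -0.13. Cps1 was below HFD in every CLE liver without passing (-0.48 ± 0.19, adjusted p = 0.11, limma). The 5 endothelial markers summed to 80.1 to 84.7 FPKM in HFD and 86.2 to 98.7 in CLE, without overlap. Their means in HFD and CLE were 43 and 54.5 FPKM for Clec4g, 7.51 and 9.03 for Kdr and 6.53 and 6.61 for Pecam1. Those of Stab2 were 20.1 and 19.9 FPKM and those of Lyve1 5.36 and 4. None of the 5 passed (limma), and 1 had an unadjusted p below 0.05, as had 3529 of the 11994 tested genes. The part of these markers in the CLE values was not tested.

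Ugt2b36 was at 333, 334 and 391 FPKM in CLE, below every HFD liver, and just missed the threshold (log2 fold change -0.38 ± 0.11, adjusted p = 0.057). Ugt1a1 was at 404, 388 and 404 FPKM in CLE, also below every HFD liver (log2 fold change -0.23 ± 0.12, adjusted p = 0.21). Ugt1a6a, at 49.7, 42.9 and 48.8 FPKM, overlapped HFD. In 5 of the 10 genes every CLE liver was below every HFD liver, as in 14.9% of all tested genes. Ugt2b38 was the 1 gene with every CLE liver above HFD, as were 16.3% of all, at 1.41, 1.07 and 2.97 FPKM (log2 fold change 0.79 ± 0.39, adjusted p = 0.2).

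With luteolin, Ugt1a9 was lower than in HFD. It was the 1 gene of 10 that passed in LU against HFD, where 0.992% of all tested genes passed and 0.709% were lower. In LU it was at 6.56, 7.13 and 11.8 FPKM, below the 15.7, 22.9 and 23.5 FPKM of HFD in every liver. The log2 fold change was -1.21 ± 0.21 (adjusted p = 0.02, limma), and the mean fell to 0.41 times that of HFD. Leaving out HFD mouse 15 or 18 or LU mouse 2 or 3 took the adjusted p to 0.11, 0.08, 0.092 and 0.1, and the clock score in the fit to 0.11. In CLE the gene was at 17.5, 11.8 and 11.3 FPKM, which overlapped HFD. Its log2 fold change in CLE against HFD was -0.58 ± 0.21 (adjusted p = 0.1, limma), and it passed there when CLE mouse 2 was left out.

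A wider set of the genes lay below HFD in the LU livers without passing the adjusted threshold. In 8 of the 10 genes, with Ugt1a9 among them, every LU liver was below every HFD liver, as in 16.8% of all tested genes. An unadjusted p below 0.05 (limma) was also found in 8 of 10, as in 20.4% of all. That second set is not the same, since it leaves out Ugt2b5 and holds Ugt2b38, which was higher (log2 fold change 1.06 ± 0.39, adjusted p = 0.17). Ugt2b35 was at 51.9, 60.9 and 64.0 FPKM in LU (log2 fold change -0.92 ± 0.22, adjusted p = 0.07). Ugt3a2 was at 193, 169 and 179 FPKM (-0.49 ± 0.13, adjusted p = 0.084) and Ugt2b34 at 165, 170 and 152 FPKM (-0.51 ± 0.15, adjusted p = 0.11). These are the genes that passed with the extract. All 3 passed in LU against HFD when CLE mouse 4 was left out, with adjusted p values of 0.0098, 0.016 and 0.029, the spread being estimated over all groups. Ugt2b1 overlapped HFD, at 240, 285 and 124 FPKM, and Ugt2b38 did so at 2.15, 5.75 and 0.627 FPKM. The median log2 fold change of the 10 genes was -0.33, and that of all tested genes -0.02.

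The 4 adipocyte markers were near 0 in HFD, where they summed to 0.0699 to 0.156 FPKM, and reached 1.02 to 1.34 FPKM in LU, against 0 to 0.107 in ND and 0.139 to 0.384 in CLE. Adipoq was listed at 0 in 2 HFD livers and at 0.5 to 0.759 FPKM in LU. The part of such RNA in the LU values was not tested.

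The extract and luteolin groups were not told apart by these genes. None of the 10 genes passed in CLE against LU (limma), 1 had an unadjusted p below 0.05 where 4.26% of all did, and 0.00834% of all tested genes passed. The closest was Ugt1a9, with a log2 fold change of 0.63 (95% limits 0.17 to 1.09, adjusted p = 0.98 by limma). For the genes that passed with the extract the limits were -0.73 to 0.21 for Ugt2b35, -0.41 to 0.14 for Ugt3a2 and -0.40 to 0.25 for Ugt2b34, so that differences within those limits in either direction are possible. Ugt1a1 had the limits -0.20 to 0.31 and Ugt2b36 -0.31 to 0.17. The extract was given at 1.5% and luteolin at 0.003% of the diet, so that the doses differ.

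Set against the normal diet, some of the 10 genes were higher and others lower in the treated groups. In CLE the share that was higher was near that of all tested genes. In CLE against ND, 5 of 10 genes passed, 2 higher and 3 lower, where 26.7% of all tested genes did, 20.6% higher and 6.12% lower. Ugt1a6a (log2 fold change 0.52 ± 0.12, adjusted p = 0.011) and Ugt2b36 (0.49 ± 0.11, adjusted p = 0.01) were higher. Ugt1a9 (-1.12 ± 0.21, adjusted p = 0.0052), Ugt2b35 (-0.78 ± 0.22, adjusted p = 0.022) and Ugt2b38 (-1.51 ± 0.39, adjusted p = 0.017) were lower. Without CLE mouse 4 the adjusted p was 0.062 for Ugt2b35 and 0.067 for Ugt2b38, and without ND mouse 3 it was 0.069 and 0.053. Ugt2b35 also missed the threshold without ND mouse 2 (adjusted p = 0.057). With the single highest transcript in place of the sum, the log2 fold change of Ugt1a6a was 0.15 (adjusted p = 0.62). Ugt1a1 was above ND in every CLE liver without passing (0.34 ± 0.12, adjusted p = 0.053), and it passed with a GC content correction (0.47, adjusted p = 0.017). Ugt2b36 did not pass under median-of-ratios scaling, with a log2 fold change of 0.33 (adjusted p = 0.068), and this scaling lowered the share of higher genes among all calls from 77.1% to 46.1%.

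In LU against ND, 3 of 10 genes passed, 2 higher and 1 lower, where 14.5% of all tested genes did, 10.8% higher and 3.69% lower. Ugt1a6a (0.49 ± 0.12, adjusted p = 0.022) and Ugt2b36 (0.56 ± 0.11, adjusted p = 0.0098) were higher, and Ugt1a9 was lower (-1.75 ± 0.21, adjusted p = 0.00099, limma). Ugt1a9 thus stood at 8.51 ± 2.89 FPKM in LU and 30.0 ± 1.35 in ND (mean ± SD, n = 3), without overlap. Ugt2b35 and Ugt2b38 also passed without CLE mouse 4, and Ugt1a1 with a GC content correction (0.38, adjusted p = 0.049, against 0.28 and 0.12 as deposited). Ugt1a6a did not pass under median-of-ratios scaling (adjusted p = 0.055), where the share of higher genes among all calls was 44.8% against 74.6% as deposited, nor without ND mouse 2 or 4 or LU mouse 2 or 3 (adjusted p = 0.057 to 0.075). With the clock score in the fit, none of the 10 genes passed in either treated group against ND, and the clock scores of CLE and LU lay wholly above those of ND. The log2 fold change of Ugt1a9 was then -0.74 in CLE (adjusted p = 0.43) and -1.37 in LU (adjusted p = 0.23). CLE and LU share the ND and HFD livers as their references, so the values of the treated groups are not independent of each other.

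The Ugt1a locus as a whole summed to 459 ± 14.8 FPKM in ND, 622 ± 13.3 in HFD, 516 ± 20.5 in CLE and 495 ± 44.0 in LU over its 9 genes (mean ± SD, n = 3). Ugt1a1 supplied most of it, with 60.5 to 74.1% in ND and 72.4 to 80.3% in HFD. The share of Ugt1a9 was 6.07 to 7.07% in ND, 2.47 to 3.79% in HFD, 2.18 to 3.27% in CLE and 1.27 to 2.26% in LU. In each of the high-fat groups it lay below ND without overlap. Ugt1a5 moved in the same sense, at 28.9, 76.8 and 32 FPKM in ND and 8.55, 16.2 and 14.1 FPKM in HFD (log2 fold change -1.65 ± 0.38, adjusted p = 0.015, limma). ND mouse 3 was high in this gene and had the lowest share of Ugt1a1.

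**Figure D3:**
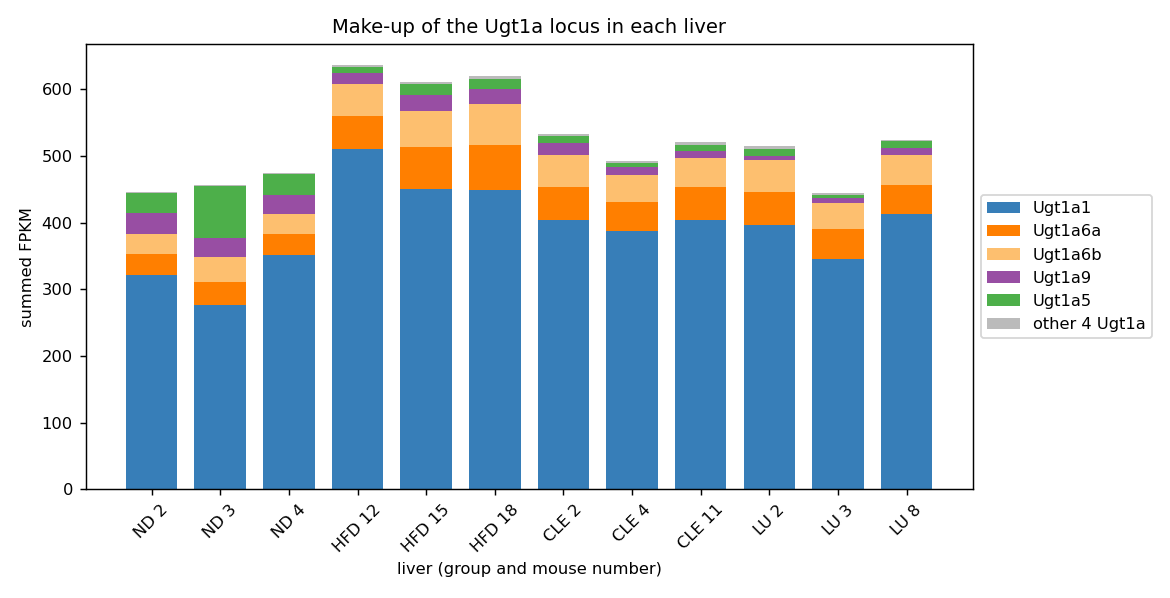
Summed FPKM of the Ugt1a genes (y axis) stacked by gene in each of the 12 livers (x axis). The HFD columns are the tallest, at 610 to 636 FPKM, with most of each column from Ugt1a1, while Ugt1a9 and Ugt1a5 take their largest part in the ND columns.

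How reads divide among the Ugt1a genes is uncertain, because they share exons. Of the 100-base windows of the main transcript, 57.2% in Ugt1a1, 58.5% in Ugt1a9 and 97.7% in Ugt1a6a also occurred in another Ugt1a gene. Ugt1a6a and its neighbour Ugt1a6b came out at nearly equal levels in each liver, with a ratio of 0.973 to 1.15, and Ugt1a6b also rose in HFD (log2 fold change 0.77 ± 0.13, adjusted p = 0.0022, limma). The pair is therefore better read together. In contrast, no such window of Ugt2b1, Ugt2b35, Ugt2b36 or Ugt3a2 occurred in another gene, and 0.4% of those of Ugt2b34 did.

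Ugt2b5 and Ugt2b38 were joined in the assembly. Most of the signal of Ugt2b5 came from 3 assembled transcripts that span 299246 bases, from the start of Ugt2b38 to the end of Ugt2b5, and these held 159 to 360 FPKM in a liver. The reference transcript of Ugt2b5 made up 24.7% of its mean level. It was at 98.1, 106 and 0.000203 FPKM in ND and at 84.5, 59.4 and 190 FPKM in HFD, so the division between it and the joined transcripts differed widely from liver to liver, while the sum did not. The sum was at 459, 351 and 358 FPKM in ND, 343, 365 and 349 in HFD, 324, 342 and 383 in CLE and 332, 339 and 304 in LU, and Ugt2b5 passed in none of the 6 comparisons. Both genes have 24.7% and 24.2% of their 100-base windows in common with each other or Ugt2b37. When they were counted as 1 gene, the log2 fold change was -0.15 in HFD against ND (adjusted p = 0.46). The Ugt2b38 reference transcript was a small part of that sum. The joined transcripts were all assigned to Ugt2b5, and how much of their signal came from Ugt2b38 is unknown.

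**Figure D4:**
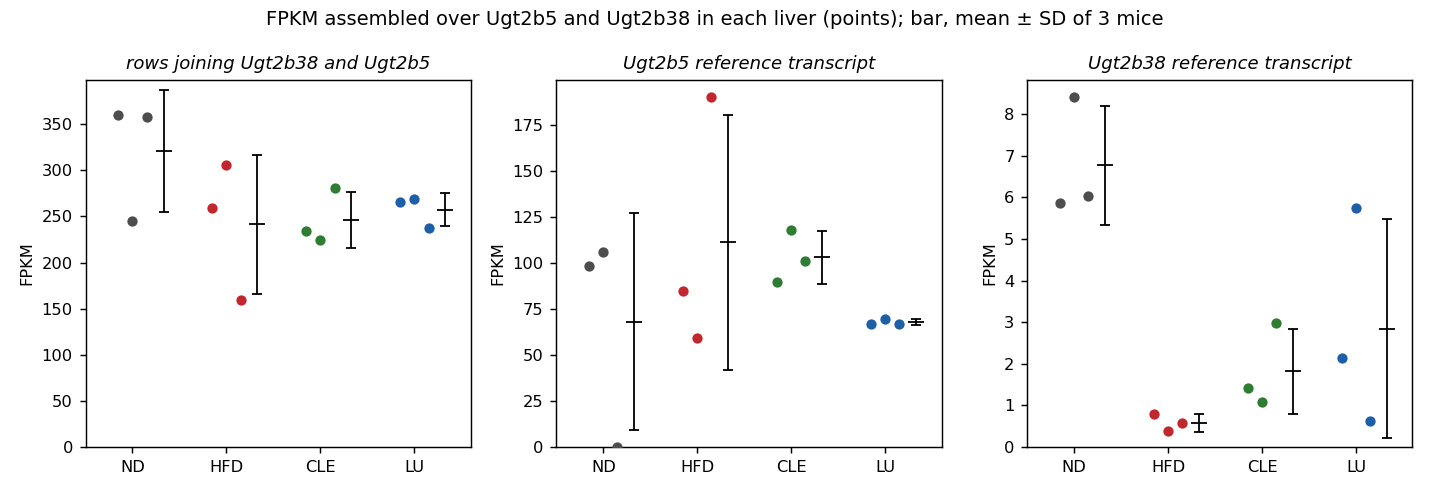
FPKM (y axes) of the 3 transcripts joining Ugt2b38 and Ugt2b5, of the Ugt2b5 reference transcript and of the Ugt2b38 reference transcript in the 4 groups (x axes), with a point per liver and the mean ± SD of 3 mice. The Ugt2b5 transcript ranges from 0.000203 to 190 FPKM, and the Ugt2b38 transcript stays below 1 FPKM in the 3 HFD livers.

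Ugt2b1 varied widely within the treated groups, at 168, 114 and 235 FPKM in CLE and 240, 285 and 124 FPKM in LU, and it passed in no comparison. In HFD against ND it was at 198, 179 and 214 against 254, 252 and 194 FPKM, and its log2 fold change was -0.24 ± 0.29. Over all 22 UGT genes the sum was 2064 ± 83.7 FPKM in ND, 2498 ± 12.9 in HFD, 1962 ± 214 in CLE and 2007 ± 120 in LU (mean ± SD, n = 3). The HFD livers were above all others, and the other 3 groups overlapped.

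Of the 12 UGT genes that are not members, 7 were high enough to test. In HFD against ND, Ugt1a6b and Ugt1a7c (log2 fold change 0.59 ± 0.16, adjusted p = 0.034) were higher and Ugt1a5 lower. Of all tested genes 9.73% were higher and 2.03% lower there, and 3.15% were lower in CLE against HFD. In CLE against HFD, Ugt3a1 was lower, at 89.3, 70.0 and 87.0 FPKM against 119, 145 and 108 FPKM (log2 fold change -0.59 ± 0.13, adjusted p = 0.035, limma), beside its neighbour Ugt3a2, and did not pass without CLE mouse 4 (-0.48, adjusted p = 0.12) or with a GC content correction (-0.42, adjusted p = 0.064). Ugt1a7c did not pass under median-of-ratios scaling (adjusted p = 0.083). None of the 7 passed in LU against HFD (limma), and 4 had an unadjusted p below 0.05, as had 20.4% of all tested genes. Ugt2a3, at 148 ± 8.70 FPKM in ND and 143 ± 5.16 in HFD, was lower in CLE than in ND (113 ± 18.1 FPKM, adjusted p = 0.043). Ugt1a2, Ugt1a8, Ugt2a1, Ugt2a2 and Ugt8a were under 0.5 FPKM on average in these sums. A transcript named Ugt2a1 and 3 named Ugt2a3 were not assigned to a gene and were left out. That named Ugt2a1 was at 7.79 ± 3.57 FPKM in ND and 2.59 ± 0.925 in HFD (mean ± SD, n = 3). The 3 named Ugt2a3 summed to 8.09 ± 4.91 and 2.28 ± 1.15 FPKM. These differences were not tested.

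Among the 7 genes that supply the sugar, Ugdh rose in HFD and was lower in both treated groups. Ugdh, which makes UDP-glucuronic acid from UDP-glucose, was at 50.5, 43.7 and 39.9 FPKM in ND, 100, 113 and 103 in HFD, 74.4, 84.8 and 74.4 in CLE and 69.6, 65.9 and 65.4 in LU. It rose in HFD by 1.23 ± 0.11 on the log2 scale (adjusted p = 3.4e-05, limma). Against HFD it was lower in CLE (-0.44 ± 0.11, adjusted p = 0.041) and in LU (-0.65 ± 0.11, adjusted p = 0.015), with no overlap in either. Ugp2, which makes UDP-glucose, was at 271, 272 and 257 FPKM in HFD and 172, 78.8 and 166 FPKM in CLE (log2 fold change -1.02 ± 0.24, adjusted p = 0.037, limma). Without CLE mouse 4 the log2 fold change of Ugp2 was -0.66 (adjusted p = 0.058) and that of Ugdh in CLE -0.50 (adjusted p = 0.071). With a GC content correction Ugdh no longer passed in CLE (adjusted p = 0.14) or LU (adjusted p = 0.055), nor Ugp2 in CLE (adjusted p = 0.053). Ugdh was the 1 supply gene of 7 that passed in HFD against ND, and 2 were lower in CLE and 1 in LU against HFD. Of all tested genes 11.8% passed in HFD against ND, and 3.15% were lower in CLE and 0.709% in LU against HFD. Slc35d1, which carries the cosubstrate into the endoplasmic reticulum, was at 61.8 ± 3.6 FPKM in HFD and 47.8 ± 7.73 in ND, which did not pass (adjusted p = 0.054).

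Of 6 transporters of glucuronides and related anions, 3 rose and 1 fell in HFD, where 9.73% of all tested genes rose and 2.03% fell. Abcc3, which exports glucuronides to the blood, was at 42.6, 54.5 and 70.3 FPKM in ND and 136, 132 and 135 FPKM in HFD (log2 fold change 1.28 ± 0.16, adjusted p = 0.00037, limma). Abcc2, the exporter to the bile, rose by 0.49 ± 0.15 on that scale (adjusted p = 0.049), and Abcc4 by 0.54 ± 0.15 (adjusted p = 0.03) from a level of 0.512 ± 0.0411 FPKM. Slco1a1, an uptake transporter, was at 159, 172 and 150 FPKM in ND and 18.4, 11.4 and 17.9 FPKM in HFD (log2 fold change -3.28 ± 0.35, adjusted p = 0.00011, limma). It was higher than in HFD both in CLE (1.90 ± 0.35, adjusted p = 0.019) and in LU (1.97 ± 0.35, adjusted p = 0.02). Under median-of-ratios scaling Abcc2 (adjusted p = 0.17) and Abcc4 (adjusted p = 0.052) did not pass in HFD against ND. The other 5 transporters did not pass against HFD in either treated group. Of the 4 genes of glucuronide and UDP turnover, Entpd5, a UDP-hydrolysing enzyme of the endoplasmic reticulum, rose in HFD (0.54 ± 0.15, adjusted p = 0.034, or 0.12 under median-of-ratios scaling). None of these 4 passed in CLE or LU against HFD (limma), although 1 in each had an unadjusted p below 0.05. So had 3529 of the 11994 tested genes in CLE and 20.4% in LU.

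**Figure D5:**
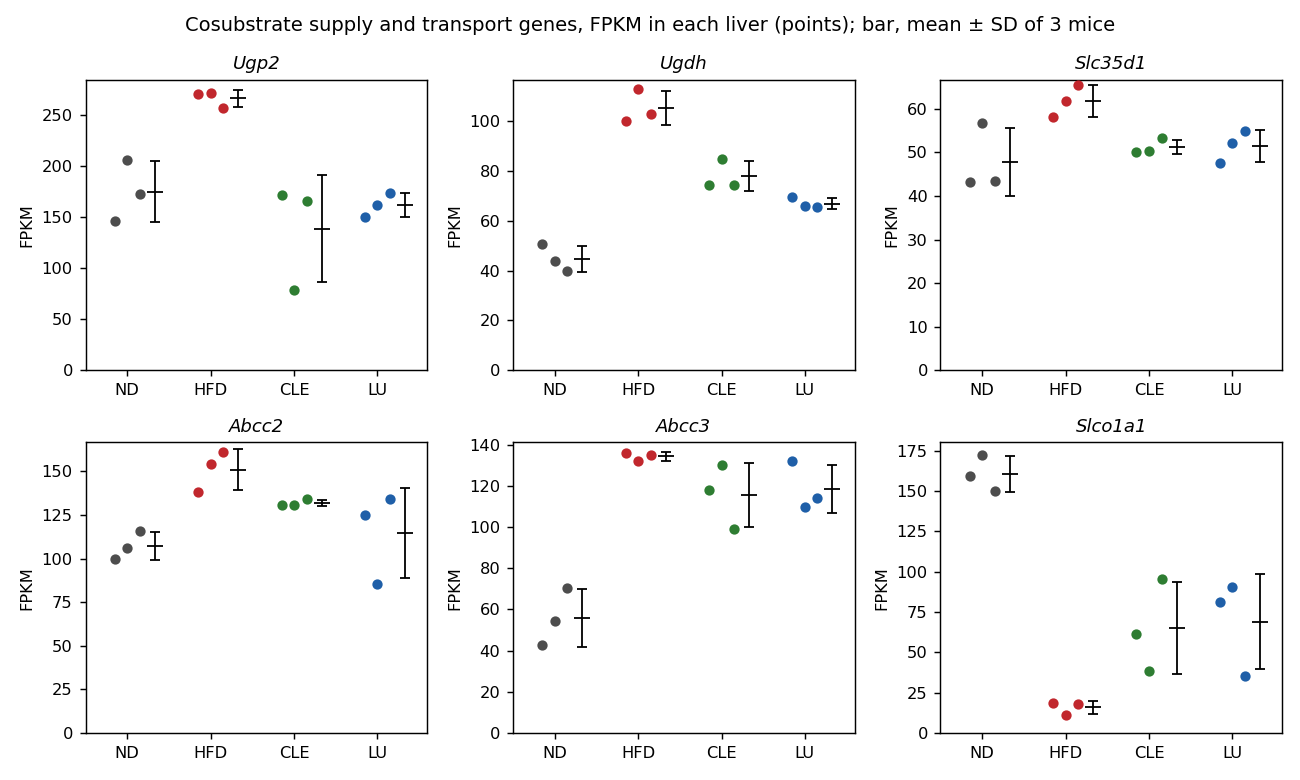
FPKM (y axes, each starting at 0) of the cosubstrate genes Ugp2, Ugdh and Slc35d1 and of the transporters Abcc2, Abcc3 and Slco1a1 in the 4 groups (x axes), with a point per liver and the mean ± SD of 3 mice. Ugdh and Abcc3 are higher in HFD than in ND in every liver, and Slco1a1 is at 11.4 to 18.4 FPKM in HFD and 150 to 172 FPKM in ND.

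Of 4 heme oxygenase and biliverdin reductase genes, 2 rose in HFD, where 9.73% of all tested genes did. Hmox1 (heme oxygenase) was at 7.60 ± 0.350 FPKM in ND and 14.1 ± 2.06 in HFD (log2 fold change 0.80 ± 0.14, adjusted p = 0.0028, limma). Blvrb rose by 0.82 ± 0.20 (adjusted p = 0.022, or 0.073 under median-of-ratios scaling). The other biliverdin reductase gene, Blvra, did not pass (0.22 ± 0.11, adjusted p = 0.22, limma), nor did Hmox2 (0.10 ± 0.11, adjusted p = 0.62, limma). None of the 4 passed in CLE or LU against HFD (limma), with 1 in each at an unadjusted p below 0.05, where 3529 of the 11994 tested genes were in CLE and 20.4% in LU. Of 14 regulators known to act on UGT genes, 3 rose in HFD and none fell, against 9.73% and 2.03% of all tested genes. The risen regulators were Nr1i3, the receptor CAR (log2 fold change 0.93 ± 0.26, adjusted p = 0.035), Ahr (0.84 ± 0.21, adjusted p = 0.022) and Nfe2l2 (0.56 ± 0.11, adjusted p = 0.0071). Under median-of-ratios scaling Nfe2l2 passed (adjusted p = 0.038), and Nr1i3 (adjusted p = 0.095) and Ahr (adjusted p = 0.058) did not. None of the 14 passed in CLE or LU against HFD (limma), with 2 and 3 of them at an unadjusted p below 0.05. Of the 11994 tested genes, 3529 were so in CLE and 20.4% in LU.

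Known target genes of these receptors were measured as well. Of 10 tested, 7 rose and 2 fell in HFD against ND, where 9.73% of all tested genes rose and 2.03% fell. Cyp3a11, a target of PXR and CAR, had a mean of 615 FPKM in ND and 2275 FPKM in HFD, a log2 fold change of 1.91 ± 0.17 (adjusted p = 4.1e-05, limma). Nqo1, a target of the product of Nfe2l2, had 4.43 and 11.8 FPKM (1.23 ± 0.18, adjusted p = 0.0011, limma). Cyp2b10 (1.41 ± 0.21), Cyp2b9 (5.77 ± 0.60), Cyp2c55, Gclc and Cyp1a2 rose too, while the PPARα targets Cyp4a10 and Cyp4a14 fell. In ND the means of Cyp2b10, Cyp2b9 and Cyp2c55 were 0.0782, 0.485 and 0.49 FPKM, and in HFD 1.95, 79.6 and 2.64 FPKM. Cyp2b10 was listed at 0 in ND mice 2 and 3, and a listed 0 can be a failed estimate. Against HFD, Cyp2b9, Cyp2b10, Cyp2c55 and Gclc were lower in both CLE and LU, and Nqo1 in LU. Of all tested genes 3.15% were lower in CLE and 0.709% in LU. Cyp1a1, the usual marker of an active aryl hydrocarbon receptor, was at 0.0471 to 0.401 FPKM in the 12 livers and too low to test.

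Among the 23 calls of these further UGT, pathway, regulator and target genes in HFD against ND, 12 passed both under median-of-ratios scaling and in each of the 12 fits with 1 mouse left out. They were Ugdh, Abcc3, Slco1a1, Hmox1, Nfe2l2, Ugt1a6b, Cyp3a11, Cyp2b9, Cyp2b10, Cyp2c55, Gclc and Nqo1. Against HFD, 2 of 8 such calls in CLE (Cyp2b9 and Cyp2c55) and 1 of 7 in LU (Cyp2b9) passed in all of these fits. Of the UGT members, Ugt1a6a, Ugt2b36 and Ugt2b38 did so in HFD against ND, while Ugt1a1 passed in each fit with 1 mouse left out but not under the scaling, and none of the calls against HFD did so. The Ugt2b38 call is of its reference transcript alone. With the clock score in the fit, 13 of the 23 calls in HFD against ND passed, and Ugt1a5, Ugt1a7c, Abcc2, Abcc4, Entpd5, Blvrb, Nr1i3, Cyp1a2, Cyp4a10 and Cyp4a14 did not (adjusted p = 0.054 to 0.43). Against HFD, 2 of the 8 in CLE (Cyp2b9 and Cyp2c55) and 1 of the 7 in LU (Cyp2b9) passed with this score, and for Slco1a1 the adjusted p was 0.096 in CLE and 0.11 in LU. With the GC content correction 22, 5 and 5 of the 23, 8 and 7 calls passed, and those lost beyond Ugdh, Ugp2 and Ugt3a1 were Cyp4a10 in HFD (adjusted p = 0.052) and Nqo1 in LU (adjusted p = 0.062).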

How the data were processed

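Libraries were made from mRNA of 12 livers with an unstranded kit and read as pairs. The authors aligned reads with TopHat2 2.0.12 and Bowtie2 2.2.3, after CASAVA 1.8.2, and used Cufflinks 2.2.1 for assembly and for the FPKM they deposited for each transcript. The methods of the authors name normalization factors from the DEGES procedure, with no statement on whether these entered the FPKM. The genome build is not given in the sources used here. The table names 30 samples in its assembly and holds 12. No read counts were used, so depth is unknown, and no interval from counting is given. The FPKM of all genes of a liver summed to 532623 to 633969.

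The 152210 transcripts include 78786 known ones. Each was assigned to the GENCODE M21 (GRCm38) gene of its reference transcript, since the deposited names give 5 of the 10 genes their own name and merge the others (all Ugt1a as 1 name, Ugt2b5 with Ugt2b38). FPKM was then summed per gene over 142559 transcripts. Left out were 8149 with no reference, 839 on the opposite strand or in introns, and 663 whose reference could not be placed. Of 76916 known transcripts, 87.6% had the start and end of M21.

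Tests were limma 3.58.1 (R 4.3.3) with a variance trend on log2(FPKM + 1) over 12 mice and 11994 genes averaging 0.5 FPKM or more, with Benjamini-Hochberg adjustment over all of them and a threshold of 0.05. On simulated data for HFD against ND with 11994 genes, 195 of 200 genes changed by 1.5 and 148 of 200 changed by 0.75 (log2) were recovered, with 15 and 8 others called, and none with no change. The changed genes were drawn from the more highly expressed ones, and each gene varied independently, without shared shifts of GC content, clock score or scaling. The simulation thus does not describe recovery for a gene as low as Ugt2b38 or error rates under such shifts. Named were all 10 genes, and of the pathway lists the other UGT genes and those that passed. Slc35d1, Cyp1a1, Adipoq, Blvra and Hmox2 were named after their values were seen, as were the cell type markers given that did not pass. The members and lists were chosen with earlier results of these data known. Promoters are from RefSeq (GRCm38.p6). Mouse numbers of ND, CLE and LU did not pair the samples. P-values measure the spread between mice.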

Additional observations from a re-analysis of the deposited data

Results flagged for a closer look

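Transcripts named Ugt2b35 that were not assigned to a gene were left out of the sums. These 5 transcripts held a signal above the normal diet in HFD, with a mean of 40.0 ± 2.60 FPKM (SD, n = 3) at 39.7, 37.6 and 42.8 FPKM, against 31.5 ± 5.99 FPKM in ND at 35.2, 34.6 and 24.6 FPKM. Every HFD liver was above every ND liver, as in 28.6% of all tested genes. In CLE they summed to 32.5 ± 1.06 FPKM and in LU to 35.8 ± 4.29 FPKM, where LU mouse 3, at 40.3 FPKM, lay within the HFD range. The library kit did not mark strand, so reads of Ugt2b35 and of a transcript on the other strand cannot be told apart.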

How the results depend on the processing

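None of the 16 gene calls changed direction under the alternatives run. Of their 435 recomputed values, 370 kept their side of the threshold and 65 no longer passed. The calls in HFD against ND numbered 4 in the reported fit and 4 to 5 with 1 mouse left out at a time, 6 in a fit of both groups alone, which added Ugt1a9 and Ugt3a2, and 3 under median-of-ratios scaling. In CLE against HFD the count of 3 became 0 with no filter on low values, 0 in a fit of both groups alone and 0 with the clock score as covariate, and ranged from 0 to 4 with 1 mouse left out. In LU against HFD the count of 1 became 0 with no filter, 4 with both groups alone and 0 with the clock score, and ranged from 0 to 4 with 1 mouse left out. Against ND, the count of 5 in CLE became 0 and that of 3 in LU became 0 with the clock score, and with 1 mouse left out they ranged from 3 to 5 and from 2 to 5. Testing more genes without the filter raises the adjusted p by construction, and the cause of the other changes was not tested.

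Mouse numbers shared by ND, CLE and LU did not pair the samples, since correlations of their deviations ran from -0.25 to 0.19 over 5 pairs. With the replicate block in a fit of these 9 mice, 2 genes passed in CLE against ND (Ugt1a9 and Ugt2b38), 1 in LU against ND (Ugt1a9) and 0 in CLE against LU, where the same 9 mice without the block gave 5, 3 and 0.

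Depth is unknown, and 3 mice a group leave wide intervals. GC content separates both treated groups from ND and from HFD. The clock score separates both from ND, and CLE from HFD, while LU overlaps HFD in it. These features and the diets therefore cannot be fully told apart, in the comparisons against HFD as in those against ND. The corrections for GC content, length and clock score, the deposited names and the joined Ugt2b5 and Ugt2b38 were chosen after seeing the data.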
